A study of Arabidopsis thaliana with 48 samples.

Results

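The 6 input mRNA libraries of drought leaves, 3 from Col-0 (WT) and 3 from mta, all from rosettes, were compared gene by gene; they were chosen by their labels from the 48 libraries of the series. The mta line is a post-embryonic mutant in which MTA is mutated and complemented by MTA under the ABI3 promoter (mta ABI3:MTA), a promoter known for its activity in seeds and embryos. Both genotypes are of the Col-0 ecotype and were grown in soil. Drought plants were watered to capacity at 17 days of age and then had no water for 12 days. Plants of both genotypes that were watered throughout served as controls, with 3 mRNA libraries each. The mRNA libraries were made from fragmented poly(A) RNA, set aside as the input of the m6A immunoprecipitation. How many plants made up each library, and whether replicate libraries were grown and harvested apart, is not stated in the labels. The p-values therefore reflect only the scatter among these 6 libraries and their watered counterparts, which may be technical. The number of independent mta lines is not given in the sources used here.

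N6-methyladenosine (m6A) is placed on mRNA by a nuclear complex whose catalytic subunit in Arabidopsis is MTA, with MTB, FIP37, VIRILIZER and HAKAI as partners. YTH-domain proteins of the ECT family read the mark, and it affects the processing, stability and translation of the transcripts that carry it. In a drying leaf, abscisic acid (ABA) normally closes stomata and switches on protective proteins and proline synthesis, while salicylate, the hormone of defence against biotrophic pathogens, often works against it.

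The 6 drought libraries held 3706776 to 4557698 counts on genes. Values below are CPM, counts scaled to a common library size with TMM factors, and differences are log2 fold changes of mta minus WT ± SE with 3 libraries per group, from edgeR's quasi-likelihood test. A gene was called when its Benjamini-Hochberg adjusted p over the 17666 genes tested was under 0.05. The first principal component of the 12 mRNA libraries held 70.8% of the variance and set drought apart from watered leaves. The second held 17.3% and set the 3 mta drought libraries, at 62.0 to 66.5, apart from the 3 WT drought libraries, at -62.3 to -57.3. All values come from whole leaves, in which fewer cells of a type and less RNA per cell cannot be told apart.

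The targeted gene, MTA (AT4G10760, chromosome 4, 6619817 to 6623381 of TAIR10, minus strand), was read first. Its level in drought was 26.0, 25.3 and 18.9 CPM in the WT libraries and 10.6, 8.26 and 9.79 CPM in the mta libraries. Every mta library was below every WT library. The log2 fold change was -1.28 ± 0.18 (adjusted p = 3.07e-06) in drought and -1.16 ± 0.19 (adjusted p = 9.6e-05) in watered leaves, and MTA mRNA was still read in every mta library. Reads of the mutant gene and of the transgene cannot be told apart in these counts.

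One property of the mta drought libraries touches many results. In them short genes were shifted upward and long genes downward against WT, and the watered libraries showed no such shift. The median log2 fold change in drought was 0.37 in the shortest 3534 genes (90 to 1631 bases from start to end), 0.18, 0.06 and -0.11 in the next 3 groups of 3533, and -0.48 in the longest 3533 (3714 to 27265 bases). The rank correlation with span over the 17666 genes, which are no independent replicates, was -0.357 in drought, 0.004 in watered leaves, -0.148 for polysomal RNA in drought and 0.033 for uncapped RNA in drought. Its part in a gene's difference was not tested apart from a second fit, in which the trend of each library along gene span was removed; values of that fit are given where they change the count of a list by more than 1.5 times or turn a direction, and for some smaller changes. The share of counts on plastid genes was also lower in the mta drought libraries, 1.93% to 2.37% against 3.69% to 3.98% in WT.

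**Figure D1:**
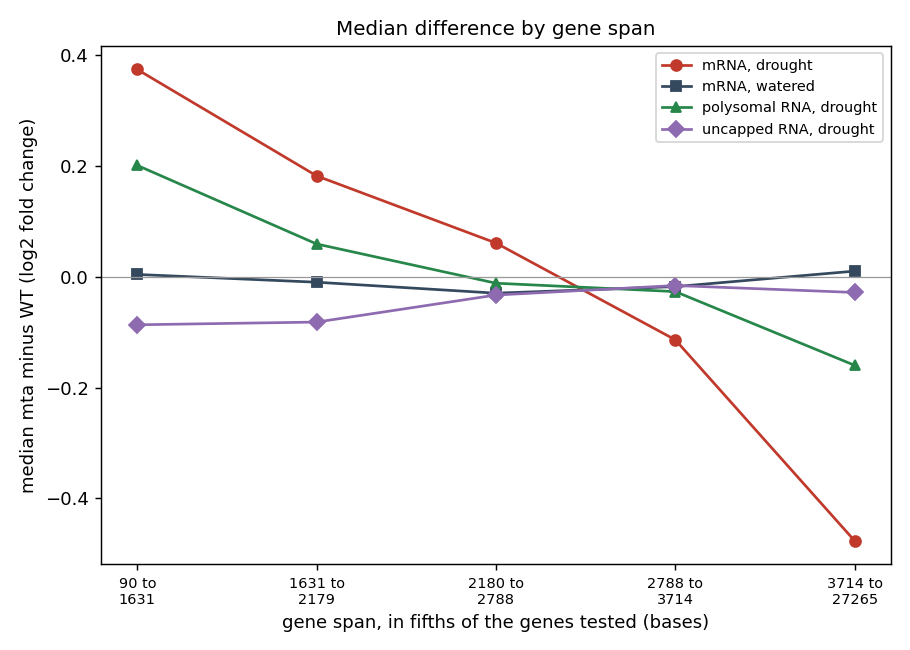
Median log2 fold change of mta minus WT (vertical axis) in 5 groups of the genes tested, ordered by their span in bases (horizontal axis), for mRNA in drought and in watered leaves and for polysomal and uncapped RNA in drought. The mRNA line in drought falls from 0.37 to -0.48, while the watered line stays between -0.03 and 0.01.

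Most of the leaf genes tested differed between the genotypes in drought, and the large differences lay almost all on one side, with transcripts more abundant in mta. Of 17666 genes 9308 were called, 52.7%, with 4702 higher in mta (26.6%) and 4606 lower (26.1%). At 2-fold or more 2381 were higher and 1233 lower, and at 8-fold or more 494 were higher and 25 lower. With the span trend removed 8918 were called (50.5%), 4183 higher (23.7%) and 4735 lower (26.8%), and 412 were higher and 32 lower at 8-fold or more; of the 9308 calls 7331 were kept in the same direction and 52 were called in the other.

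The 10 genes with the largest rise were all low in WT drought leaves. PCR1 (AT1G14880, chromosome 1, 5132506 to 5133860, minus strand), a small membrane protein named for cadmium resistance, stood at 1.37, 1.92 and 2.48 CPM in the WT libraries and 593, 567 and 535 CPM in the mta libraries, a log2 fold change of 8.18 ± 0.18 (adjusted p = 4.62e-19). TAT3 (AT2G24850), a tyrosine aminotransferase of the jasmonate response, stood at 6.61, 6.32 and 3.16 CPM in WT and 429, 404 and 443 CPM in mta (6.32 ± 0.16). In both genes the mta libraries were high and the WT libraries low; that they do not overlap follows from the choice of these genes, as it does for the 10 that fell most. Over all genes tested the 3 mta libraries lay above the 3 WT libraries in 30.5% and below them in 30.2%. The glucanase BG3 (AT3G57240, 7.38 ± 0.27), AIG1 (AT1G33960, 6.88 ± 0.27), a gene first found as induced by bacterial infection, the dark-inducible dioxygenase DIN11 (AT3G49620, 6.6 ± 0.26), the monodehydroascorbate reductase MDHAR (AT3G09940, 6.5 ± 0.35), the 6-phosphogluconolactonase PGL5 (AT5G24420, 6.33 ± 0.19), the receptor-like protein RLP43 (AT3G28890, 6.33 ± 0.23), the methionine sulfoxide reductase MSRB8 (AT4G21840, 6.22 ± 0.23) and AT3G49340 (6.52 ± 0.29) completed the set. All 10 were also higher in mta in watered leaves, by 1.3 to 3.75 on the log2 scale.

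Among the 10 genes with the largest fall, a few were low in mta whatever the watering. AT3G01345 (chromosome 3, 129138 to 130749, plus strand) stood at 143, 144 and 118 CPM in WT drought leaves and 0.759, 0.799 and 0.489 CPM in mta, a log2 fold change of -7.57 ± 0.23, and its difference in watered leaves was -7.85 ± 0.20. AT1G64795 (chromosome 1, 24082579 to 24082848, plus strand) stood at 75.9, 73.3 and 80.0 CPM and 2.28, 4.53 and 2.20 CPM (-4.67 ± 0.21 in drought, -5.25 ± 0.47 in watered leaves). For neither gene did the difference between the drought and the watered effect pass (adjusted p = 0.842 and 0.524). A further 6 were genes that WT leaves raised in drought. AT3G15670, one of these, stood at 137, 148 and 152 CPM in WT drought leaves and 14.9, 19.2 and 20.1 CPM in mta (-3.01 ± 0.12), and all 3 mta libraries were far below the WT libraries. WOX2 (AT5G59340), a homeobox factor known from the embryo, differed by -3.19 ± 0.32, the poly(ADP-ribose) polymerase PARP3 (AT5G22470) by -2.94 ± 0.22, AT3G21660 by -3.87 ± 0.37, AT3G09450 by -3.82 ± 0.26 and the arabinogalactan galactosyltransferase GALT2 (AT4G21060) by -3.05 ± 0.18. The beta-galactosidase BGAL3 (AT4G36360), which fell in drought in both genotypes, differed by -2.91 ± 0.15. The plastid gene ATCG00700 differed by -4.0 ± 0.38 in drought and by -2.81 ± 0.40 in watered leaves, with no call for the difference of these effects (adjusted p = 0.0977). In the other drought libraries it differed by -0.44 ± 0.83 in polysomal RNA (adjusted p = 0.674) and, in the opposite direction, by 1.02 ± 0.37 in uncapped RNA (adjusted p = 0.0299).

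Genes of salicylate and pipecolate synthesis, which make the signals of systemic acquired resistance, were all higher in mta. All 10 tested members rose, with a median of 4.22 against 0.01 over all genes, where 26.6% of all genes rose. The lists, here and below, were chosen with earlier results of these data known. Their contrast with all genes therefore follows in part from that choice and is no independent support. FMO1 (AT1G19250), which makes N-hydroxypipecolate, stood at 3.87, 2.47 and 6.09 CPM in WT and 113, 114 and 107 CPM in mta. The 3 mta libraries lay close together and above all WT libraries, with a log2 fold change of 4.7 ± 0.18 (adjusted p = 3.07e-15). ALD1 (AT2G13810), the aminotransferase at the start of the pipecolate branch, stood at 1.14, 0.824 and 0.902 CPM and 27.3, 21.6 and 33.8 CPM (4.8 ± 0.32, adjusted p = 4.4e-11). A pair of enzymes that inactivate these signals rose as well. DLO1 (AT4G10500), a salicylate hydroxylase, went from 6.38, 7.14 and 8.34 CPM in WT to 187, 192 and 219 CPM in mta (4.77 ± 0.15). The glycosyltransferase UGT76B1 (AT3G11340), which acts on salicylate and N-hydroxypipecolate, stood at 1.14, 1.65 and 1.35 CPM and 35.9, 40.2 and 45.8 CPM (4.87 ± 0.22).

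Receptors and targets of salicylate followed. All 13 tested members of the list of NPR receptors and salicylate response rose, with a median of 4.53, or 4.41 with WRKY62 at its bound. PR1 (AT2G14610, chromosome 2, 6241640 to 6242541, minus strand), the classic marker protein of salicylate signalling, stood at 36.0, 32.1 and 39.7 CPM in WT and 1307, 1395 and 1222 CPM in mta. The groups did not overlap, and the log2 fold change was 5.18 ± 0.14 (adjusted p = 9.92e-18). NUDT6 (AT2G04450), a pyrophosphatase linked to salicylate signalling, stood at 2.05, 0 and 1.58 CPM and 52.8, 42.9 and 44.5 CPM (5.16 ± 0.32). WRKY38 (AT5G22570) and WRKY62 (AT5G01900), related factors that act downstream of NPR1, were all but unread in WT: WRKY38 had 1 count over the 3 WT libraries and 113 over the 3 mta libraries, and WRKY62 had 0 and 15, at least 5.25-fold higher against a floor of 3 counts over the group. The summed level of the list was 391.6 to 419.9 CPM in WT drought leaves and 9814 to 10313 CPM in mta drought leaves.

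The EDS1 module, through which many immune receptors signal, was higher too. Of 6 tested members 5 rose and none fell (median 1.48). PAD4 (AT3G52430), a lipase-like partner of EDS1, stood at 4.10, 2.75 and 2.93 CPM in WT and 81.4, 70.6 and 79.5 CPM in mta (4.54 ± 0.16, adjusted p = 7.03e-16). EDS1 itself (AT3G48090) stood at 10.0, 12.4 and 13.1 CPM and 76.4, 65.8 and 64.1 CPM (2.54 ± 0.13). Both genes were low in all WT libraries and high in all mta libraries, and in watered leaves the difference was 0.42 ± 0.11 for PAD4 and 0.37 ± 0.10 for EDS1, smaller than in drought by the test of the difference (adjusted p = 1.32e-12 and 1.56e-09). The partner SAG101 (AT5G14930) differed by 2.08 ± 0.13 and the helper receptor ADR1 (AT1G33560) by 0.88 ± 0.14.

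Pattern recognition at the cell surface, stress WRKY factors and camalexin synthesis moved the same way. Of 14 cell-surface receptors and signalling genes 12 rose and 1 fell (median 1.36), and the 1 that fell, the peptide receptor PEPR1, was not called with the span trend removed, by DESeq2, without WT drought replicate 1 or 2 or without mta drought replicate 1 or 3. RLP23 (AT2G32680), a receptor-like protein that senses a peptide of microbial NLP toxins, stood at 34.6, 32.1 and 31.6 CPM in WT and 276, 220.3 and 351 CPM in mta (3.11 ± 0.22). The flagellin receptor FLS2 (AT5G46330) stood at 7.29, 2.47 and 3.61 CPM and 23.0, 22.9 and 23.7 CPM (2.34 ± 0.24), FRK1 (AT2G19190), a kinase gene induced by flagellin, differed by 2.4 ± 0.23, and the MAP kinase MPK11 (AT1G01560) by 2.71 ± 0.17. In each of these genes all mta libraries were above all WT libraries. All 8 WRKY factors rose (median 3.35): WRKY46 (AT2G46400) stood at 1.37, 1.92 and 1.80 CPM in WT and 26.0, 29.6 and 32.5 CPM in mta (4.1 ± 0.22), and WRKY50, WRKY51 and WRKY55 differed by 4.88 ± 0.31, 4.47 ± 0.26 and 4.26 ± 0.44. All 6 camalexin genes rose (median 2.99), among them PAD3 (AT3G26830), which completes this antimicrobial indole, with 64.7, 65.4 and 57.7 CPM in WT and 731, 754 and 739.8 CPM in mta (3.57 ± 0.09, adjusted p = 9.34e-18). CYP79B2 (AT4G39950), at the branch to camalexin and indole glucosinolates, differed by 3.02 ± 0.13; CYP71A12 and CYP71A13, near-identical neighbours between which reads may be split, differed by 3.21 ± 0.14 and 2.97 ± 0.11. Over these 6 immune lists together, a grouping chosen after their values were seen, with each gene once, 54 of 57 tested genes rose and 1 fell in drought, against 28 and 12 in watered leaves.

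**Figure D2:**
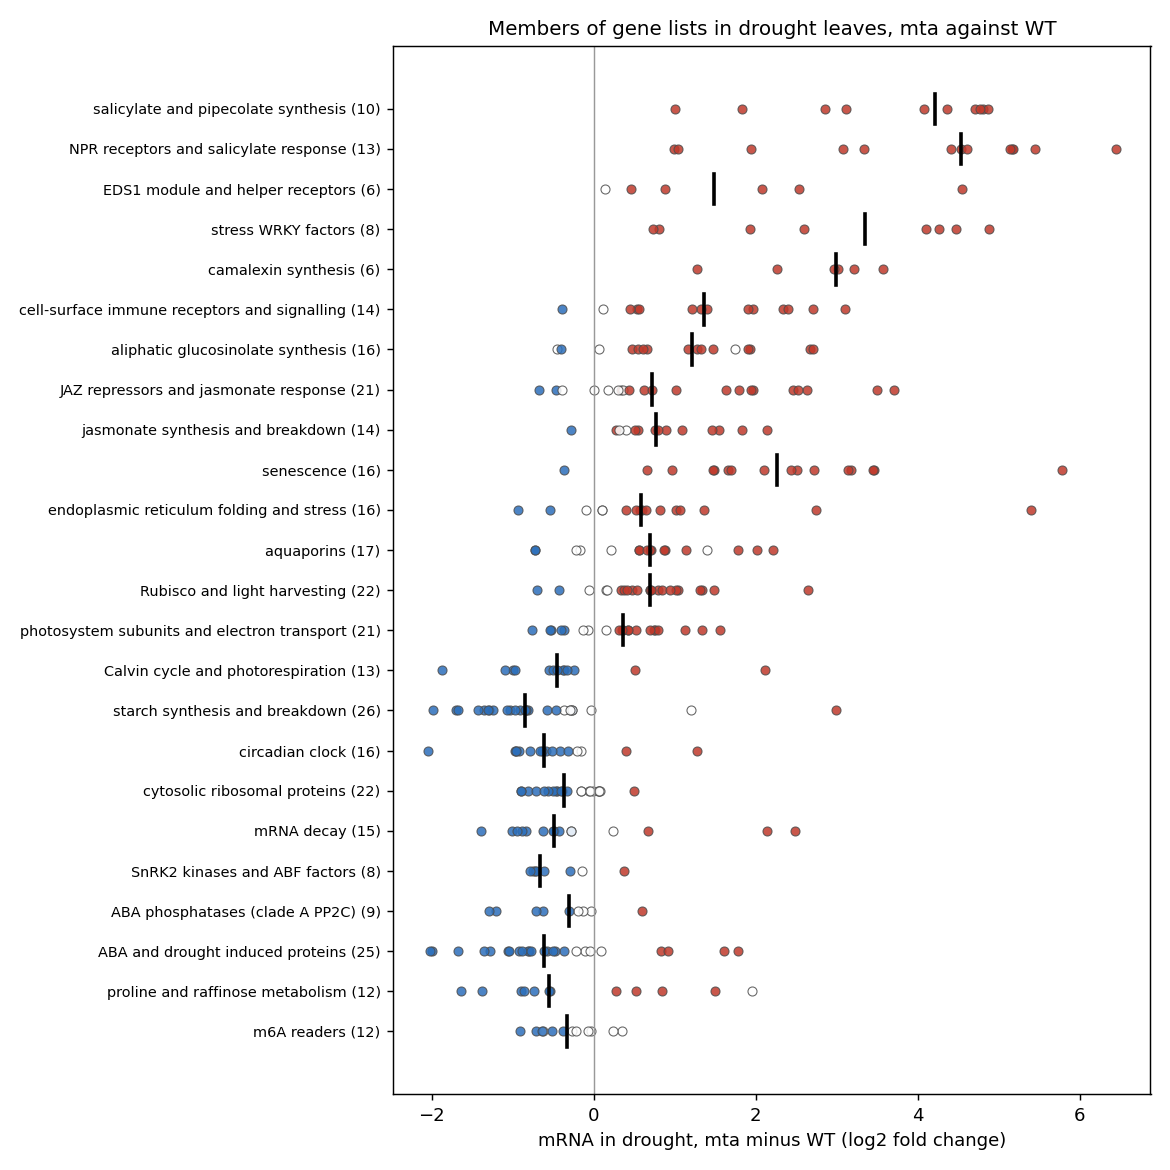
Log2 fold change of mta minus WT in drought (horizontal axis) for each tested member of 24 gene lists (rows, with the number tested), as filled points where called (red higher, blue lower) and open points where not; the black bar is the median. Salicylate, WRKY and camalexin lists lie wholly on the right, while starch, clock and ABA lists lie mostly on the left.

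Chemical defence and jasmonate genes were higher in mta as well, by less. Of 16 aliphatic glucosinolate genes, which make the thioglucosides behind mustard oils, 12 rose and 1 fell (median 1.22; 2 fell with the span trend removed, and none fell by DESeq2, in the fit of the 6 drought libraries or without any 1 of the 3 WT control libraries, WT drought replicate 1 or 2 or mta drought replicate 1 or 2). The sulfotransferase SOT17 (AT1G18590) stood at 4.79, 7.14 and 6.09 CPM in WT and 35.7, 36.8 and 44.8 CPM in mta (2.71 ± 0.17), and the aminotransferase BCAT4 (AT3G19710), which starts methionine chain elongation, at 14.1, 11.5 and 13.1 CPM and 45.3, 56.5 and 46.5 CPM (1.93 ± 0.12). All 16 members had fallen in drought in WT and in mta, in comparisons that share libraries with this one, with medians of -3.31 and -2.77. Of 14 genes of jasmonate synthesis and breakdown 11 rose and 1 fell (median 0.77; none fell with the span trend removed, without WT drought replicate 1 or without mta drought replicate 1 or 2). The lipoxygenase LOX2 (AT3G45140) stood at 44.9, 41.2 and 43.1 CPM in WT and 187, 176 and 205 CPM in mta (2.13 ± 0.13). The cyclases AOC2 and AOC3, neighbouring copies whose reads may be split, differed by 1.55 ± 0.10 and 1.83 ± 0.16.

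Of 21 JAZ repressors and jasmonate response genes 14 rose and 2 fell (median 0.73; 12 and 2 with the span trend removed, and 1 fell without WT drought replicate 1 or without mta drought replicate 1 or 2). VSP1 (AT5G24780), a vegetative storage protein and jasmonate marker, stood at 38.3, 43.9 and 32.5 CPM in WT drought leaves and 446, 422 and 427 CPM in mta (3.5 ± 0.11, adjusted p = 1.39e-16). Its near copy VSP2 (AT5G24770) differed by 2.63 ± 0.10. In watered leaves the VSP1 difference was 0.03 ± 0.10, which did not pass (adjusted p = 0.892). The ethylene and jasmonate factor ERF1 (AT3G23240) stood at 2.05, 1.10 and 2.93 CPM and 29.8, 32.0 and 21.3 CPM (3.71 ± 0.26), and its relative ORA59 (AT1G06160) differed by 2.53 ± 0.29.

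Genes of leaf senescence, the programmed dismantling of the leaf, were higher in mta. Of 16 senescence genes 15 rose and 1 fell (median 2.27). SAG12 (AT5G45890), a cysteine protease used as the marker of developmental senescence, stood at 1.37, 0.824 and 0.451 CPM in WT and 51.6, 51.7 and 46.5 CPM in mta (5.77 ± 0.27). SAG13 (AT2G29350), a short-chain dehydrogenase that rises early in senescence, stood at 128, 127 and 126 CPM and 1366, 1435 and 1386 CPM (3.46 ± 0.11). WRKY53 (AT4G23810), a regulator of the onset of senescence, stood at 39.2, 36.2 and 32.2 CPM and 330.5, 332 and 314 CPM (3.18 ± 0.12). In all 3 genes the mta libraries lay above the WT libraries without overlap. NAC042 (AT2G43000), a NAC factor also called JUB1 and known to delay senescence, was higher too (3.45 ± 0.25). Of the 16 genes 7 had risen and 8 had fallen in drought in WT (median -0.66), and 15 had risen in mta (median 1.64); these values share libraries with the genotype comparison.

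Genes of chlorophyll breakdown, which accompanies yellowing, were partly higher. Of 6 genes 4 rose and 1 fell (median 0.42; 3 and 1 with the span trend removed, median 0.30). The magnesium dechelatase NYE1 (AT4G22920) stood at 68.6, 70.3 and 74.6 CPM in WT and 153, 156 and 165 CPM in mta (1.15 ± 0.09), and the chlorophyll b reductase NYC1 (AT4G13250) at 186, 186 and 168 CPM and 380.3, 361 and 376 CPM (1.05 ± 0.09). PAO (AT3G44880), the oxygenase that opens the ring, was lower in mta (-0.48 ± 0.08). Among 18 autophagy genes 8 rose and 1 fell (median 0.28; none fell with the span trend removed, and 2 fell without mta drought replicate 3), with 1.39 ± 0.15 for ATG8E (AT2G45170), a ubiquitin-like protein of the autophagosome, and 0.97 ± 0.15 for ATG7 (AT5G45900), the enzyme that activates it.

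**Figure D3:**
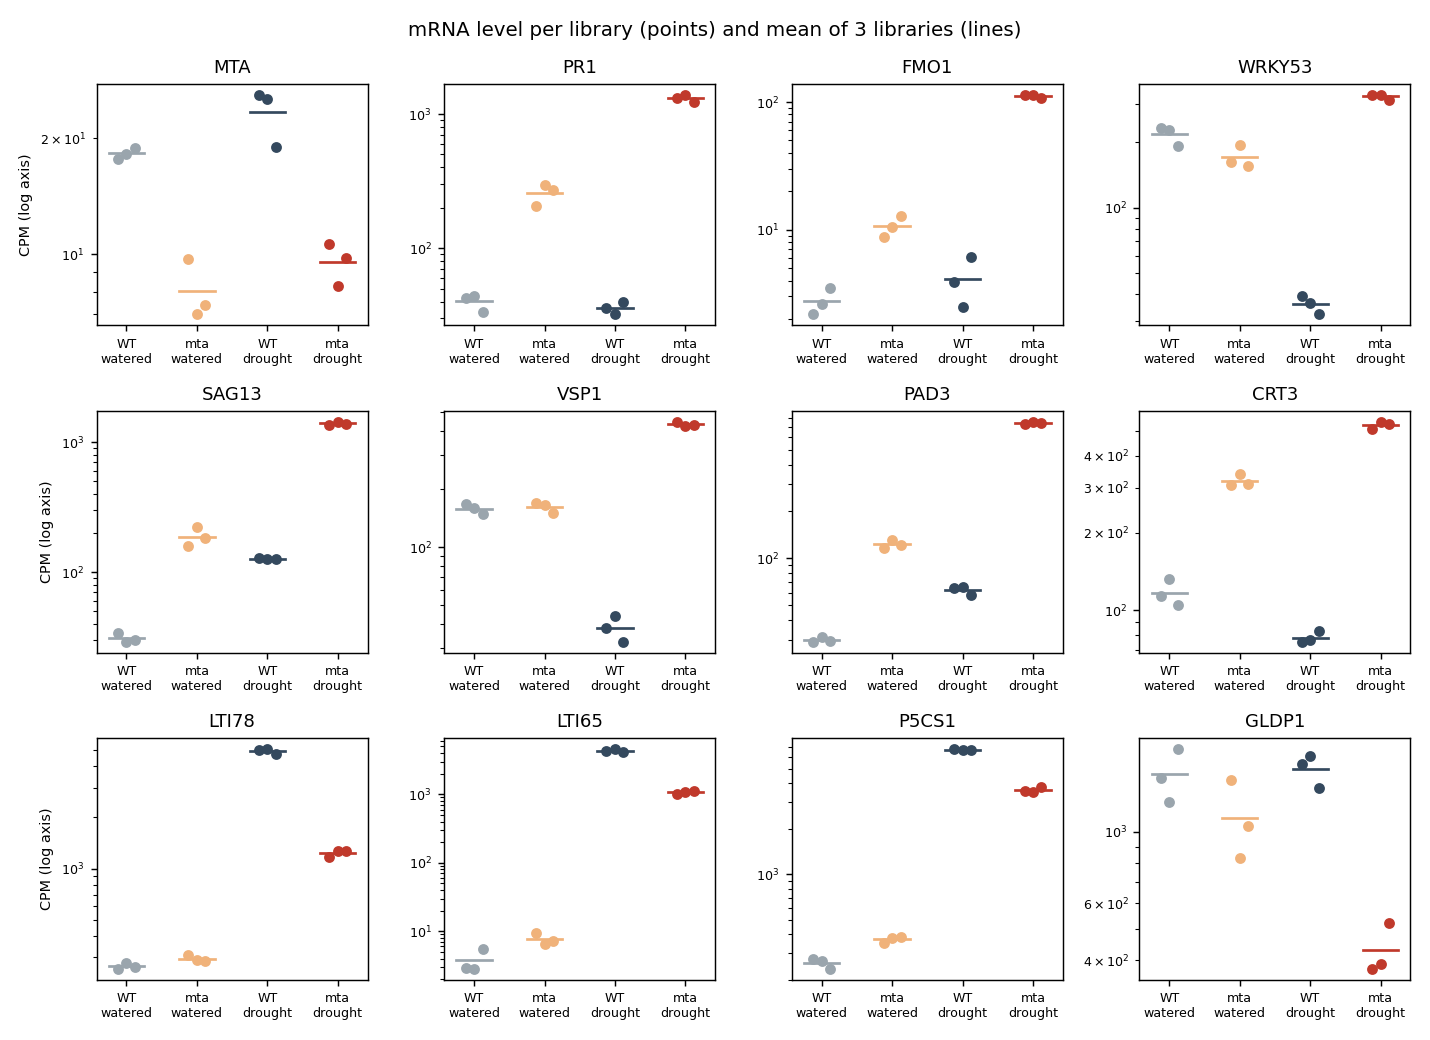
mRNA level in CPM on a log axis for 12 genes in each of the 12 mRNA libraries (points) with the mean of 3 libraries (lines), by genotype and watering. In drought the 3 mta libraries lie above the 3 WT libraries for PR1, FMO1, WRKY53, SAG13, VSP1, PAD3 and CRT3 and below them for MTA, LTI78, LTI65, P5CS1 and GLDP1.

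Most of the ABA and drought induced proteins, the best-known targets of the drought response, were lower in mta. Of 25 ABA and drought induced proteins 17 were lower in mta and 4 higher (median -0.61; 20 and 4 with the span trend removed, median -0.99), against 26.1% lower over all genes. LTI65 (AT5G52300, chromosome 5, 21237021 to 21239531, plus strand), also known as RD29B, stood at 4328, 4601 and 4157 CPM in WT and 1016, 1083 and 1117 CPM in mta. LTI78 (AT5G52310), also known as RD29A, stood at 5022, 5065 and 4751 CPM and 1176, 1277 and 1261 CPM. For both neighbouring genes every mta library was far below every WT library, with log2 fold changes of -2.02 ± 0.10 (adjusted p = 4.09e-13) and -2.0 ± 0.08 (adjusted p = 6.52e-15). ERD4 (AT1G30360), an early dehydration-responsive membrane protein, stood at 998, 1034 and 895 CPM and 293, 289 and 335 CPM (-1.67 ± 0.11). COR15B (AT2G42530), a cold-regulated plastid protein, went the other way, from 7.98, 9.06 and 7.22 CPM in WT to 26.0, 34.1 and 23.5 CPM in mta (1.79 ± 0.19). The genes were still strongly raised by drought in mta: the median drought effect over the list was 3.7 in WT and 3.15 in mta, and LTI65 rose by 10.38 and 7.1. Their summed level was 73529.9 to 76569.9 CPM in WT drought leaves and 38040 to 43341 CPM in mta.

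The ABA pathway that drives these targets differed by component. Of 7 tested PYR/PYL receptors 4 were higher and 1 was lower (median 0.89; none was lower without WT drought replicate 3 or without mta drought replicate 3). PYL4 (AT2G38310) stood at 1.37, 0.275 and 0.902 CPM in WT and 5.56, 6.66 and 8.08 CPM in mta (2.9 ± 0.38), PYL8 (AT5G53160) at 19.1, 20.0 and 17.6 CPM and 42.7, 40.8 and 52.1 CPM (1.26 ± 0.14), and PYL1 and PYR1 differed by 1.52 ± 0.23 and 0.89 ± 0.13. Of 9 clade A phosphatases, which hold the pathway off and are induced by it, 5 were lower and 1 higher (median -0.30; 6 and 1 with the span trend removed). HAI3 (AT2G29380) stood at 55.8, 59.0 and 54.3 CPM and 22.3, 22.6 and 28.1 CPM (-1.21 ± 0.13), HAI2 (AT1G07430) differed by -0.72 ± 0.12 and ABI2 (AT5G57050) by -0.63 ± 0.10. AHG1 had a difference of -1.29 ± 0.42 (adjusted p = 0.0153) that did not pass without mta drought replicate 1 or 3. Of 8 SnRK2 kinases and ABF factors 6 were lower and 1 higher (median -0.66; none was higher without WT drought replicate 1 or without mta drought replicate 3). The kinase OST1 (AT4G33950), which closes stomata on ABA, stood at 36.5, 43.1 and 42.8 CPM in WT and 26.5, 20.5 and 26.9 CPM in mta (-0.72 ± 0.16), and the factors ABI5, ABF1 and ABF4 differed by -0.78 ± 0.18, -0.74 ± 0.12 and -0.71 ± 0.11.

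Of 12 genes of ABA synthesis, breakdown and transport 3 were higher and 6 lower (median -0.21; 4 and 4 with the span trend removed, median 0.10). The hydroxylase CYP707A1 (AT4G19230), which breaks ABA down, stood at 97.8, 96.4 and 102 CPM in WT and 26.5, 24.8 and 30.8 CPM in mta (-1.85 ± 0.11). BG1 (AT1G52400), a glucosidase that frees ABA from its glucose ester, stood at 402, 413 and 399 CPM and 2399, 2323 and 2373 CPM (2.55 ± 0.08), and the importer ABCG40 (AT1G15520) at 17.6, 18.4 and 13.8 CPM and 103, 97.8 and 123 CPM (2.71 ± 0.19). In both genes the mta libraries lay above the WT libraries without overlap. Among 16 drought transcription factors 4 were higher and 5 lower (3 and 7 with the span trend removed), shares near the 26.6% and 26.1% over all genes, with 3.24 ± 0.34 for MYB15, 2.9 ± 0.17 for MYB2, 1.57 ± 0.20 for the zinc finger factor RHL41 and -1.85 ± 0.28 for CBF4. The median of these 16 factors was 0.08, and -0.30 with the span trend removed.

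Genes of proline and raffinose, solutes that protect drying cells, were mostly lower. Of 12 proline and raffinose genes 7 were lower and 4 higher (median -0.55; 7 and 3 with the span trend removed). P5CS1 (AT2G39800), the rate-limiting enzyme of proline synthesis, stood at 6760.5, 6694 and 6638 CPM in WT and 3536, 3531 and 3774 CPM in mta (-0.89 ± 0.08). Its copy P5CS2 (AT3G55610) stood at 2563, 2494 and 2520.1 CPM and 968, 927 and 1028 CPM (-1.37 ± 0.08). The WT libraries of each gene lay close together, and each mta library was below them. Both enzymes were higher in mta in watered leaves, by 0.52 ± 0.08 and 0.55 ± 0.08. The raffinose synthase SIP1 (AT5G40390) differed by -1.63 ± 0.14, and the proline transporter PROT1 (AT2G39890) by 1.5 ± 0.25.

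Photosynthesis genes differed by list, in part along gene span. Of 22 Rubisco and light-harvesting genes 17 were higher in mta and 2 lower (median 0.69), and 12 and 4 with the span trend removed (median 0.24). LHB1B1 (AT2G34430), an antenna protein of photosystem II, stood at 72.5, 69.7 and 80.3 CPM in WT and 470.0, 500.3 and 419 CPM in mta (2.64 ± 0.11; 2.21 ± 0.08 with the trend removed), and LHCB3 (AT5G54270) at 170.0, 158 and 159 CPM and 448, 472 and 439.5 CPM (1.48 ± 0.09). The Rubisco small subunits RBCS2B and RBCS3B, neighbouring copies whose reads may be split, differed by 1.34 ± 0.13 and 1.31 ± 0.08. All 22 genes had fallen in drought in both genotypes, with medians of -2.94 in WT and -2.62 in mta. Of 21 photosystem and electron transport genes 13 were higher and 5 lower (median 0.36), but 4 and 8 with the span trend removed (median 0.01), so the direction of this list depends on that trend. PSAN (AT5G64040), a small subunit of photosystem I, differed by 1.56 ± 0.13 and 1.06 ± 0.10 with the trend removed.

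Most members of the Calvin cycle and photorespiration list and of the starch list were lower in mta. The Rubisco small subunits, which also serve carbon fixation, were counted with the light-harvesting genes above, and RBCS2B and RBCS3B were higher. Of 13 Calvin cycle and photorespiration genes 11 were lower and 2 higher (median -0.45). GLDP1 (AT4G33010), a subunit of mitochondrial glycine decarboxylase, stood at 1622, 1715 and 1372 CPM in WT and 376, 388 and 523 CPM in mta (-1.87 ± 0.17). Phosphoribulokinase (PRK, AT1G32060) stood at 248, 236 and 237 CPM and 117, 111 and 134 CPM (-1.0 ± 0.09), and the glycolate oxidase GOX1 (AT3G14420) differed by -1.09 ± 0.09. The carbonic anhydrase CA1 (AT3G01500) stood apart from these, at 31.7, 38.7 and 31.1 CPM in WT and 147, 146 and 144 CPM in mta (2.11 ± 0.10). Of 26 genes of starch synthesis and breakdown 20 were lower and 1 higher (median -0.84; 18 and 2 with the span trend removed, median -0.46). The plastid amylase AMY3 (AT1G69830) stood at 70.9, 79.4 and 71.9 CPM and 24.5, 19.2 and 25.5 CPM (-1.68 ± 0.14), the isoamylase ISA2 (AT1G03310) differed by -1.7 ± 0.17 and the limit dextrinase LDA (AT5G04360) by -1.98 ± 0.19. The 1 gene that was higher was AMY1 (AT4G25000), a secreted amylase known from senescence and pathogen attack, at 13.0, 15.9 and 16.2 CPM in WT and 119, 126 and 113 CPM in mta (2.99 ± 0.12). Of 14 chlorophyll synthesis genes 7 were lower and 2 higher (median -0.34; 1 was higher with the span trend removed, without WT drought replicate 1 or without mta drought replicate 2 or 3), with -1.16 ± 0.13 for GUN5 (AT5G13630), a subunit of magnesium chelatase.

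The clock genes, which set the daily timing of many of these pathways, were lower too. Of 16 tested members 12 fell and 2 rose (median -0.61; 1 rose with the span trend removed, without WT drought replicate 1 or without mta drought replicate 3). GI (AT1G22770), a large clock protein of the evening, stood at 25.5, 31.9 and 26.2 CPM in WT and 8.09, 4.26 and 7.59 CPM in mta (-2.05 ± 0.22), PRR5 (AT5G24470) at 86.4, 83.8 and 83.2 CPM and 49.1, 37.6 and 42.6 CPM (-0.97 ± 0.11), and LNK1 (AT5G64170) differed by -0.96 ± 0.14. In watered leaves 1 clock gene was higher and none lower in mta. The labels do not give the hour of harvest of each group, so its part was not tested.

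Protein folding genes of the endoplasmic reticulum (ER) were mostly higher in mta. Of 16 ER folding and stress genes 11 were higher in mta and 2 lower (median 0.59). CRT3 (AT1G08450), a calreticulin that folds immune receptors, stood at 75.4, 76.6 and 82.8 CPM in WT and 507, 542 and 531 CPM in mta (2.75 ± 0.10). The chaperone BIP3 (AT1G09080), a marker of ER stress, had 2 counts over the WT libraries and 94 over the mta libraries. ERDJ3B (AT3G62600), a co-chaperone, differed by 1.36 ± 0.10, and the ER stress transcription factor BZIP60 (AT1G42990) by 1.07 ± 0.10. Of 17 HSP70, HSP90, HSP101 and heat shock factor genes 7 were higher and 5 lower, against 26.6% and 26.1% over all genes. HSP70 (AT3G12580), a heat-induced cytosolic chaperone, stood at 445, 448 and 404 CPM in WT and 148, 155 and 147 CPM in mta (-1.53 ± 0.11), while the factor HSFB1 (AT4G36990) stood at 57.7, 45.9 and 50.1 CPM and 234, 244 and 205 CPM (2.15 ± 0.12). Of 5 small heat shock proteins 2 were higher and 2 lower, with 2.77 ± 0.26 for HSP18.2 and -0.71 ± 0.20 for the plastid HSP21. Of the 5, 1 was higher with the span trend removed or without mta drought replicate 2 or 3, and 1 was lower without WT drought replicate 3 or without mta drought replicate 3. Their median was 0.45, and -0.28 with the span trend removed.

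Oxidant handling was mixed. Of 19 genes 10 were higher and 7 lower (median 0.21; 8 and 5 with the span trend removed), against 26.6% and 26.1% over all genes. The alternative oxidase AOX1D (AT1G32350), a bypass of mitochondrial electron transport, stood at 33.5, 31.6 and 27.3 CPM in WT and 269, 234 and 272 CPM in mta (3.07 ± 0.11). The peroxisomal catalase CAT2 (AT4G35090), which clears peroxide from photorespiration, stood at 581, 569 and 486 CPM and 225, 223 and 259.9 CPM (-1.21 ± 0.12). The iron superoxide dismutase FSD1 (AT4G25100) differed by 1.37 ± 0.10.

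Most water channel genes were higher in mta, though not their summed level, while wall genes were mixed and wax genes more often lower than higher. Of 17 aquaporins 11 were higher in mta and 2 lower (median 0.69; 9 and 3 with the span trend removed). Their summed level was 2162 to 2221 CPM in WT drought leaves and 2127 to 2198 CPM in mta drought leaves. TIP2 (AT3G26520), a water channel of the vacuolar membrane, stood at 61.1, 70.3 and 76.0 CPM in WT and 240.5, 243 and 231 CPM in mta (1.78 ± 0.11), and RD28 (AT2G37180), one of the plasma membrane, at 3.87, 2.20 and 1.58 CPM and 11.6, 10.9 and 8.81 CPM (2.01 ± 0.29). Of 24 expansin, xyloglucan enzyme and cellulose synthesis genes 9 were higher and 8 lower, against 26.6% and 26.1% over all genes. The counts were 9 and 10 with the span trend removed, and 5 were higher in the fit of the 6 drought libraries alone. XTH24 (AT4G30270), a xyloglucan-modifying enzyme, stood at 11.4, 12.9 and 11.3 CPM and 141, 132 and 160.1 CPM (3.61 ± 0.12), and the expansin EXPA10 (AT1G26770) differed by 3.33 ± 0.26. Of 14 wax genes 7 were lower and 1 higher (8 and 1 with the span trend removed, and 2 higher without mta drought replicate 2), with -0.78 ± 0.17 for CER1 (AT1G02205), an enzyme of alkane formation. Of 16 flavonoid and anthocyanin genes 4 were higher and 5 lower, shares near the 26.6% and 26.1% over all genes (2 and 7 with the span trend removed, and 2 higher without WT drought replicate 2). The anthocyanin regulators PAP1 and PAP2 differed by 1.16 ± 0.30 and 2.86 ± 0.40, and the enzyme F3H by -0.91 ± 0.12.

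RNA metabolism held the genes closest to MTA. Of the writers 3 were matched and tested: MTA and FIO1 (AT2G21070), the methylase of U6 RNA, were lower (-1.18 ± 0.26 for FIO1), and FIP37 (AT3G54170), a partner of MTA, stood at 14.6, 18.7 and 17.6 CPM in WT and 28.8, 28.8 and 24.7 CPM in mta (0.70 ± 0.14). Of 12 m6A readers 5 were lower and none higher (median -0.32; 3 lower and 1 higher with the span trend removed, and 1 was higher without mta control replicate 1 or 2 or without mta drought replicate 2). ECT8 (AT1G79270) stood at 308, 334 and 324 CPM and 173, 174 and 166 CPM (-0.91 ± 0.10), and ECT3 and ECT7 differed by -0.72 ± 0.10 and -0.64 ± 0.14. CPSF30, whose long form carries a YTH domain, had a difference of -0.51 ± 0.15, but -0.18 ± 0.15 and no call with the trend removed (adjusted p = 0.333). ECT8 and ECT3 had risen in drought in WT by 2.61 and 1.1. Of 15 mRNA decay genes 10 were lower and 3 higher (median -0.49; 8 and 3 with the span trend removed, median -0.23, and 2 higher by DESeq2, without WT drought replicate 2 or 3 or without mta drought replicate 2). The deadenylases CAF1a (AT3G44260) and CAF1b (AT5G22250), which shorten poly(A) tails, and LSM1A (AT1G19120, 0.67 ± 0.26), a subunit of the decapping activator, were the 3 higher ones: CAF1a stood at 10.9, 12.6 and 12.4 CPM in WT and 50.3, 52.8 and 56.0 CPM in mta (2.15 ± 0.14), and CAF1b at 8.43, 11.0 and 11.0 CPM and 59.7, 51.2 and 59.7 CPM (2.49 ± 0.18). The exonuclease SOV (AT1G77680) differed by -1.39 ± 0.12. Of 22 cytosolic ribosomal protein genes 12 were lower and 1 higher (median -0.36; 18 and 1 with the span trend removed, median -0.60), with -0.89 ± 0.09 for RPS6B (AT5G10360) and -0.90 ± 0.09 for the ribosome scaffold RACK1A (AT1G18080).

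Markers of other tissues and cell types were read beside these groups. None of the 9 seed markers and 2 of 11 root markers had counts enough to be tested; the seed proteins CRU3 and AT2S2 and the embryo factors LEC1 and ABI3 had no count in any of the 12 libraries. The root glucosidase PYK10 was higher in mta (0.70 ± 0.11), and the meristem gene STM was lower (-0.65 ± 0.22, adjusted p = 0.0177; it did not pass without WT drought replicate 3 or without mta drought replicate 3). The summed level of 8 vascular markers was 217 to 237 CPM in mta drought leaves and 367 to 417 CPM in WT. Of the 8, 2 were lower, a share near the 26.1% over all genes, and none was higher. The 2 were the phloem sucrose carrier SUC2 (-0.99 ± 0.11) and the factor HB-8 (-1.55 ± 0.24). With DESeq2 size factors, without a filter on low counts, with the replicate block or without organelle genes 1 was higher. So it was in the fit of the 6 drought libraries, without WT control replicate 1 or without mta control replicate 1 or 2. In polysomal RNA of drought leaves 5 of 9 vascular markers were higher and 2 lower (median 0.83, against -0.40 in mRNA). The 10 guard cell genes summed to 59.7 to 72.7 CPM in mta and 97.0 to 107.8 CPM in WT, but their median difference was positive, at 0.44. Of the 10, 3 were lower and 2 higher (1 higher without WT drought replicate 1 or 3 or without mta drought replicate 3). These shares lay near the 26.1% lower and 26.6% higher over all genes. The potassium channel GORK (-1.53 ± 0.12) was among the lower, and the factors MYB60 (1.43 ± 0.53; not called with the span trend removed, without WT drought replicate 1 or 3 or without mta drought replicate 3) and FAMA (0.62 ± 0.19; not called without WT drought replicate 3) were the higher ones. No trichome gene of 3 tested was called, and 1 was without WT drought replicate 3. Of 5 lipid transfer and AZI1 family genes 2 were higher (1 with the span trend removed, when 2 were lower), with 3.56 ± 0.43 for EARLI1. The part of tissue make-up in the other results was not tested.

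The watered libraries, none of which enters the drought difference, gave the same genotype comparison without drought. In watered leaves 3142 of the same 17666 genes were called (17.8%), 1502 higher (8.50%) and 1640 lower (9.28%). Over genes both differences had a Pearson's r of 0.358 and a Spearman's rho of 0.222; the 2 differences share no library, and genes are no independent replicates. Genes called the same way in both regimes numbered 1619, which is 17.4% of the drought calls and 51.5% of the watered calls, 1025 higher and 594 lower. Another 594 were called in opposite directions. The difference between the drought and the watered effect was called for 6650 genes (37.6%, with 19.6% more positive in drought and 18.0% more negative), among them 5905 of the drought calls. Chi-square per degree of freedom between 2 libraries of a group was 1.53 to 3.03 in drought and 2.28 to 19.3 in watered leaves. Most watered pairs thus scattered more, while all 12 libraries shared 1 estimate of the spread. The part of this in the counts called in each regime was not tested.

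Most genes of salicylate synthesis were higher in watered mta leaves too. Of the 10 salicylate and pipecolate synthesis genes 8 were higher and 1 lower in watered mta leaves (median 1.71), and 9 effects were called as more positive in drought. Of the 13 genes of salicylate response 7 were higher and 1 lower in watered leaves (median 0.80), and 12 effects were called as more positive in drought. PR1 stood at 42.8, 44.3 and 33.6 CPM in watered WT and 207, 295 and 272 CPM in watered mta (2.64 ± 0.13), and its effects differed by 2.54 ± 0.18 (adjusted p = 4.04e-10). Of the 8 stress WRKY factors 4 were higher and 4 lower in watered leaves. For starch the watered counts were 3 higher and 6 lower, with 19 of 26 effects called as more negative in drought, and for the clock 1 and 0, with 11 of 16. Of the 25 ABA and drought induced proteins 9 were higher and 7 lower in watered mta leaves (median 0.07), and 15 effects were called as more negative and 5 as more positive in drought. LTI65 stood at 2.89, 2.83 and 5.60 CPM in watered WT and 9.54, 6.44 and 7.23 CPM in watered mta (1.26 ± 0.20, adjusted p = 0.000107), the reverse of its order in drought. The ER folding list had 12 higher and 2 lower in watered leaves (median 0.95), and 8 effects were called as more negative and 4 as more positive in drought. Of the 14 wax genes 9 were lower and none higher in watered leaves, with a median of -0.46 against -0.35 in drought. Of their effects 5 were called as more positive and 1 as more negative in drought.

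**Figure D4:**
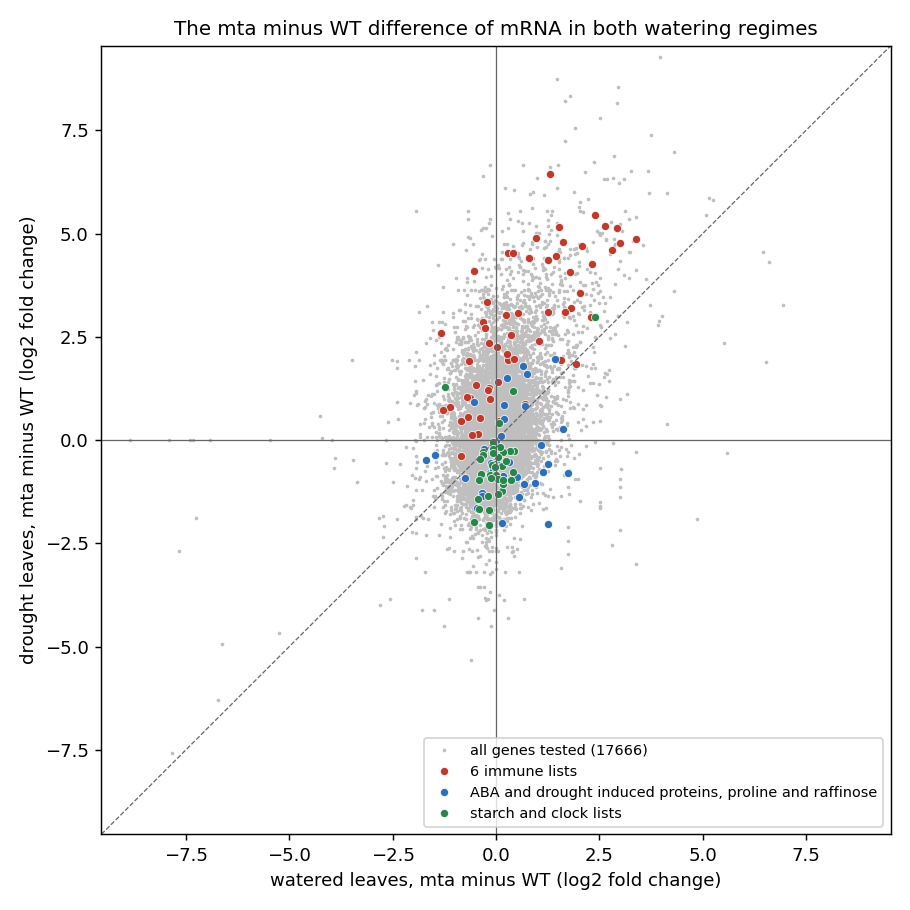
Log2 fold change of mta minus WT in drought (vertical axis) against watered leaves (horizontal axis) for the 17666 genes tested, with lists in colour and the dashed line of equal values. The immune genes lie mostly above the line of equal values, and the starch and clock genes lie mostly below 0 on the drought axis and near 0 on the watered axis.

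The same genotype comparison was made in the 2 other kinds of RNA library of drought leaves. Whether these came from the same plants as the mRNA libraries is not stated in the labels, so shared calls are no independent support. Polysomal RNA was called for 12100 of 20439 genes (59.2%), 31.6% higher and 27.6% lower, and 78.2% of the drought mRNA calls were called the same way there, which is 64.4% of its calls among the genes tested in both; 237 were called the other way. RNA with a free 5′ monophosphate, which reads uncapped and decaying transcripts, was called for 7101 of 18479 genes (38.4%), and 48.2% of the mRNA calls tested there were called the same way. The drought libraries held 35915202 to 42636432 counts for polysomal RNA and 1313457 to 6104137 for uncapped RNA, against 3706776 to 4557698 for mRNA. Polysomal read pairs appeared as 2 counts. The part of depth in the shares called was not tested. Over genes Pearson's r with the mRNA difference was 0.820 for polysomal and 0.710 for uncapped RNA. All 13 salicylate response genes and all 10 salicylate and pipecolate synthesis genes were higher in polysomal RNA, and of the 25 ABA and drought induced proteins 20 were lower and 5 higher. PR1 differed by 5.17 ± 0.06 in polysomal and 4.39 ± 0.15 in uncapped RNA, and LTI65 by -1.71 ± 0.07 and -1.15 ± 0.15. The m6A readers did not keep their direction, with 5 higher and 6 lower of 12 in polysomal RNA (median -0.01). Of 15 mRNA decay genes 4 were higher and 6 lower there (median -0.08). Over all genes the polysomal shares were 31.6% higher and 27.6% lower. Other lists changed the side of their median too. Expansins, xyloglucan enzymes and cellulose synthesis went from -0.15 in mRNA to 1.58 in polysomal RNA, and vascular markers from -0.40 to 0.83. Drought transcription factors went from 0.08 to -0.80, and flavonoid genes from -0.30 to 0.12. In uncapped RNA the medians were -0.07 for autophagy and -0.09 for oxidant handling, both positive in mRNA. ABA synthesis genes had a median of 0.02 in polysomal RNA. MTA differed by -2.22 ± 0.15 in polysomal and -1.64 ± 0.24 in uncapped RNA.

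**Figure D5:**
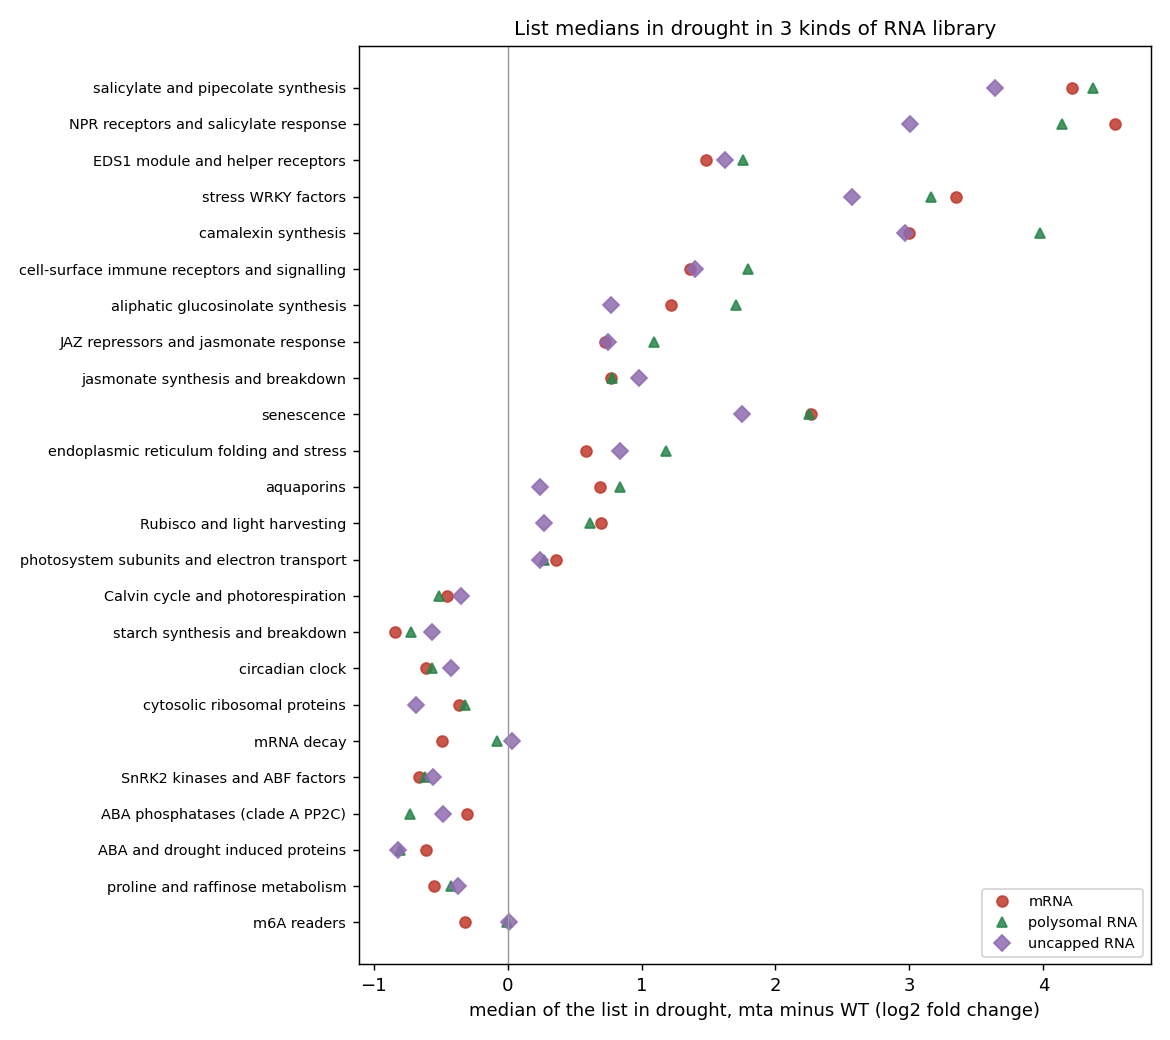
Median log2 fold change of mta minus WT in drought (horizontal axis) over the members of 24 gene lists (rows) in mRNA, polysomal RNA and uncapped RNA. Among these 24 lists the 3 medians lie on the same side of 0 except for mRNA decay and the m6A readers.

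Genes were last grouped by the m6A peaks of the drought leaves, counted as a region where at least 2 of 3 libraries had a peak. Peaks numbered 11641 to 12065 per WT library and 7746 to 10357 per mta library. The 7048 tested genes without a region had a median mRNA difference of 0.33, the 8516 with a WT region that also had a mta peak -0.12, the 1789 with a WT region and no mta peak -0.18, and the 313 with a region only in mta 0.87. A gene needs reads to give a peak: the median WT level was 2.32 on the log2 CPM scale in genes without a region and 5.07 in genes with a shared region, and the genes with a region only in mta were themselves more abundant in mta. Within the longest 3533 genes the medians were -0.14 without a region, -0.54 with a shared region and -0.59 with a WT region alone. The difference between genes with and without a WT region was -0.46, and -0.28 with the span trend removed. The part of transcript level in this difference was not tested.

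Noncoding RNAs were counted in a separate table of the same libraries. Of 343 tested 46 were called (13.4%), 33 higher in mta (9.62%) and 13 lower (3.79%). The 2 with the smallest adjusted p (2.66e-08 and 6.29e-07), named after their values were seen, were AT3G15536 at 1.14, 0.823 and 0.675 CPM in WT and 53.5, 55.3 and 50.3 CPM in mta (5.87 ± 0.28) and AT2G01422 at 0.455, 0.274 and 0.225 CPM and 40.6, 52.4 and 50.1 CPM (7.09 ± 0.47). Both were nearly unread in WT and well read in every mta library. Without WT drought replicate 2 the count was 26.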

How the data were processed

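The authors deposited raw counts per gene and per noncoding RNA, made with featureCounts 2.0.1 or 2.0.3 in paired mode on whole gene spans of TAIR10, introns included, per the file headers; mRNA and polysomal libraries were counted by strand and uncapped libraries without strand. The submitters' processing notes also name FastQC, Trim Galore, cutadapt, STAR, MACS2, bedtools and SAMtools. The deposited m6A peak lists hold 1 file per library and strand, with a fold ratio and −log10 p and q per peak, and their background library is not given in the sources used here. Low polysomal counts were even in 95.5% to 96.6% of cases, so read pairs there appear as 2 counts.

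Counts were tested with edgeR 4.0.16 in R 4.3.3 (TMM scaling, filterByExpr with 10 and 15 counts, quasi-likelihood test, 1 mean per group over the 12 mRNA libraries, Benjamini-Hochberg threshold 0.05). Noncoding, polysomal and uncapped libraries were fitted separately. The span trend was a loess curve (span 0.3) of each library along gene span, entered as an offset. The tests were tried on simulated counts in which few genes changed or in which only a span trend was added. Neither setting matches these libraries, in which most genes tested were called, so the simulations do not bear on that number. The members and the 45 gene lists were chosen with earlier results of these data known. The text names MTA, up to 4 called members per list with the largest change, and the 10 genes that rose and the 10 that fell most among called genes whose libraries did not overlap and whose mean log2 CPM in drought reached 2; other list members are given where a sentence turns on them. Of 635 symbols written 599 matched a gene and 558 passed the filter on low counts. Drought libraries with the same number deviated together with r of -0.04 to 0.03, so the numbers were not taken to pair samples. Alternatives were DESeq2 1.42.0, other scaling and filters, a replicate block, the span trend, no organelle genes and each library left out.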

Additional observations from a re-analysis of the deposited data

Results flagged for a closer look

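For 6650 genes the mta minus WT difference itself differed between drought and watered leaves in edgeR's quasi-likelihood test of the difference, and 143 of the 177 genes named by rule were among them, a share that follows in part from naming genes for a large change in drought. Of these, 10 were called in both regimes with opposite signs, each with the difference of effects called.

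The factors WRKY46 and WRKY53 were higher in mta in drought (4.1 and 3.18 on the log2 scale) and lower in watered leaves (-0.53 and -0.37), so that the effects differed by 4.63 and 3.55. The deadenylases CAF1b and CAF1a turned the same way, with effects that differed by 3.14 and 2.71. So did the cyclase AOC3, by 2.58, and the factor BZIP60, by 1.78. The other 4 were lower in mta in drought and higher in watered leaves: the effects differed by -3.28 for LTI65, -2.57 for HSP70, -1.93 for P5CS2 and -1.41 for P5CS1.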

How the results depend on the processing

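The count of 9308 genes called in drought stayed between 8396 (DESeq2) and 9621 (the 6 drought libraries alone) under the other settings, and between 8429 and 9624 with 1 library left out. The watered count of 3142 moved more, from 2379 (DESeq2) to 3572 (span trend removed), and from 2158 to 3173 with 1 library left out. The count of 6650 for the difference of effects ranged from 5571 (DESeq2) to 6789 (no organelle genes), and from 5810 to 6956 with 1 library left out. With the replicate block, though the numbers are not taken to pair samples, 9234 genes were called in drought, 3019 in watered leaves, 6456 for the difference of effects, 11890 in polysomal RNA, 6808 in uncapped RNA and 42 among noncoding RNAs. With 1 library left out, 26 to 45 noncoding RNAs were called. The median difference between genes with and without a WT m6A region, -0.46, was -0.41 with peaks of all 3 libraries, -0.29 with peaks of -log10 q of at least 10, -0.28 with the span trend removed and -0.50 to -0.45 with 1 library left out, and the cause of these shifts was not tested. In the drought difference no named gene reversed under any of these settings in which it was tested. In the fit of the 6 drought libraries alone 168 of the 177 named genes were tested. The watered difference and the difference of effects were not followed gene by gene across these settings. The opposite signs given above were therefore not tested in this way. Drought calls were lost for 5 named genes with the span trend removed and for 5 by DESeq2, and for at most 7 without any 1 library. The shallowest of the 12 mRNA libraries, WT control replicate 3, held 1504013 counts, with 11.7% on plastid genes, and enters the watered comparison.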
